A study of Homo sapiens with 2 samples.

Results

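Matrix metalloproteinases (MMPs), ADAM and ADAMTS proteases and the tissue inhibitors of metalloproteinases (TIMPs) were described in the human glioblastoma (GBM) line SF-539 with and without depletion of FKBP9. The members were the protein-coding genes whose symbol is MMP, TIMP, ADAM or ADAMTS followed directly by digits, and 67 of the 58735 genes in the deposited file met this rule. They comprised 24 MMP, 4 TIMP, 20 ADAM and 19 ADAMTS genes. MMP24OS, the gene on the opposite strand of MMP24, enters the MMP class by its symbol and is not a protease. SF-539 cells were infected with lentivirus carrying either the control vector pGIPZ-CTRL (shControl) or an shRNA against FKBP9 (shFKBP9), both groups were selected with puromycin, and 1 library was sequenced from each. The differences between shControl and shFKBP9 therefore have no replicate check, and which of the FKBP9 shRNAs was used and how many clones each population held are not given in the sources used here.

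MMPs are zinc-dependent endopeptidases that cleave collagens, laminin, fibronectin and other proteins of the extracellular matrix, and most are secreted as inactive proenzymes. ADAMs sit in the plasma membrane and release the outer parts of growth factors, cytokine receptors and adhesion proteins, while ADAMTS enzymes are secreted and act on proteoglycans and procollagens. TIMPs bind the active site of these enzymes and block it. In glioblastoma these proteases are studied for their part in the invasion of brain tissue, and the study asked how loss of FKBP9, a prolyl isomerase of the endoplasmic reticulum, changes the behaviour of GBM cells, invasion among it.

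The libraries held 18116873 fragments on genes for shControl and 17158514 for shFKBP9. FKBP9 itself stood at 49.8 FPKM (fragments per kilobase of gene length, scaled to the depth of the library) with the control vector and at 4.68 with the shRNA, so that 9.39% of its level was left. Of 8 glial markers, SLC1A3 and NES reached 1 FPKM, GFAP was at 0.196 and 0.140 FPKM, and AQP4 had 0 fragments. Of 6 mesenchymal markers 5 reached 1 FPKM, with COL1A1 at 837 and 884, and of 6 epithelial markers 1 did, KRT8. The label describes epithelial glioma cells, and neither CDH1 nor EPCAM reached 1 FPKM. Leukocyte markers were low apart from CSF1R, with PTPRC and AIF1 at 0 fragments. Endothelial markers were low apart from KDR, and 0 of 3 plasma cell markers reached 1 FPKM.

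The extracellular protease program of SF-539 cells was led by MMP2, MMP14 and TIMP1 in both libraries, and depletion of FKBP9 came with small differences in most members. At least 1 FPKM in either library was reached by 30 members, a further 25 had fragments below this level, and 12 had 0 fragments in both. Among the 30 members 15 had a higher and 15 a lower FPKM in shFKBP9, and 28 differed by less than 1.5-fold. The median log2 ratio, computed with 0.1 added to each FPKM, was 0.01 for these members and -0.02 for all 12741 genes of the file at the same level. The sign of the members' median was not stable, since it was -0.01 with values rescaled to TPM, -0.05 over members with at least 10 fragments and -0.03 without MMP24OS. MMP28 differed by more than 2-fold and ADAMTS14 by more than 1.5-fold.

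**Figure D1:**
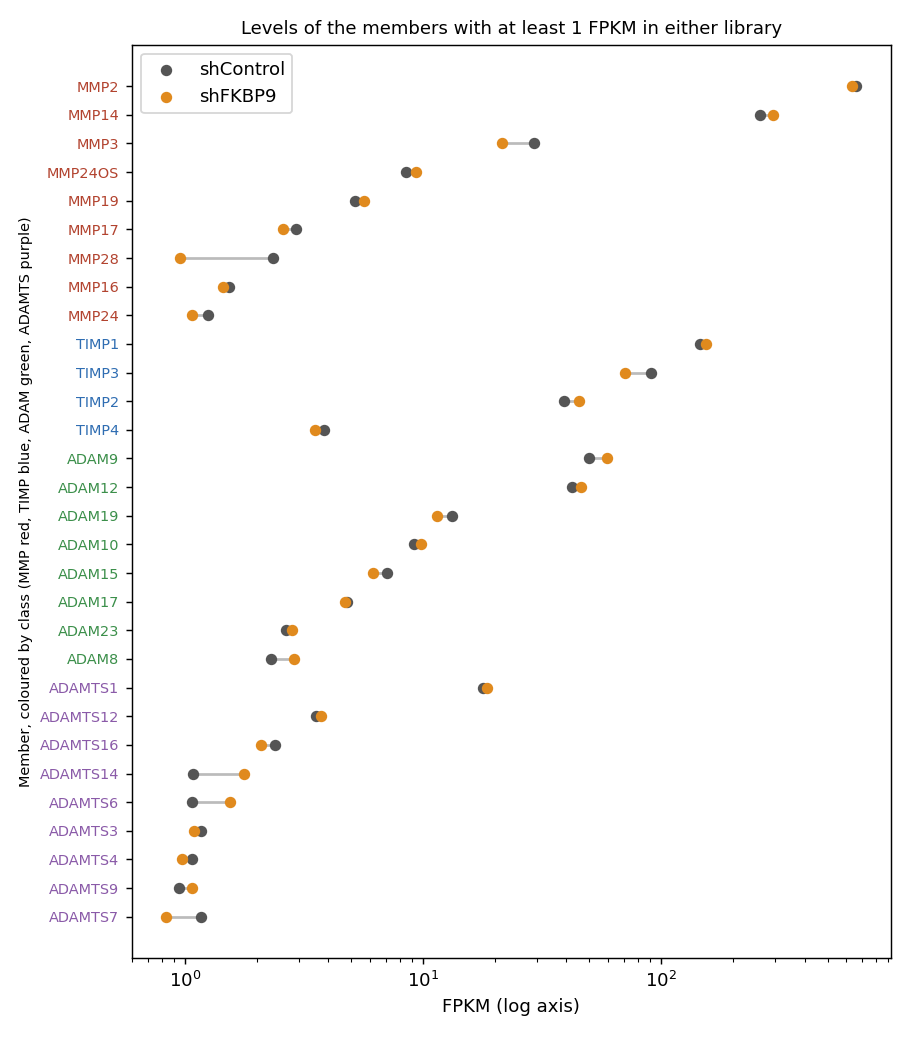
FPKM of the 30 members with at least 1 FPKM in either library, on a log axis, with 1 point for shControl and 1 for shFKBP9 joined by a line. MMP2 and MMP14 stand above all other members in both libraries, and MMP28 has the widest gap between its points.

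The number of members past a fold was read against all genes of the file that reached this level. Of the 30 members 0 were more than 2-fold higher in shFKBP9, where 2.02% of all such genes and 0.213% of the protein-coding ones were. More than 2-fold lower was 1 member (3.33%), MMP28, against 2.19% of all genes and 0.193% of protein-coding genes. At 1.5-fold, 1 member was higher, ADAMTS14, against 4.25% of all and 1.13% of protein-coding genes. At this fold 1 member was also lower, again MMP28, against 4.43% and 1.29%. MMP28 had 168 fragments in the libraries together and ADAMTS14 263, and with 1 added to FPKM in place of 0.1 neither 2-fold nor the higher 1.5-fold was passed by any of the 30 members.

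Fragments were also compared by a two-sided exact binomial test, adjusted by Benjamini-Hochberg over the 17105 genes that had 10 fragments or more when both libraries were added. The test covers counting error alone, and it compares these libraries rather than the conditions. Of the 44 members tested, 7 were called higher in shFKBP9 (15.9%) and 7 lower (15.9%). Of all genes tested 9.93% were called higher and 11.8% lower, and of the protein-coding ones 12.2% and 14.7%, so the members were called about as often as other protein-coding genes. Higher were MMP14, TIMP1, TIMP2, ADAM9, ADAM12, ADAMTS6 and ADAMTS14, and lower were MMP2, MMP3, MMP28, TIMP3, ADAM15, ADAM19 and ADAMTS7. Of these 14 members 12 differed by less than 1.5-fold. When a dispersion of 0.04 between libraries was assumed in a negative binomial exact test, adjusted over the same genes, 0 of the 14 were called, and 1 of all members had an unadjusted p under 0.05, MMP28 (unadjusted exact p = 0.00786). The same test called 5 genes of the whole file.

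**Figure D2:**
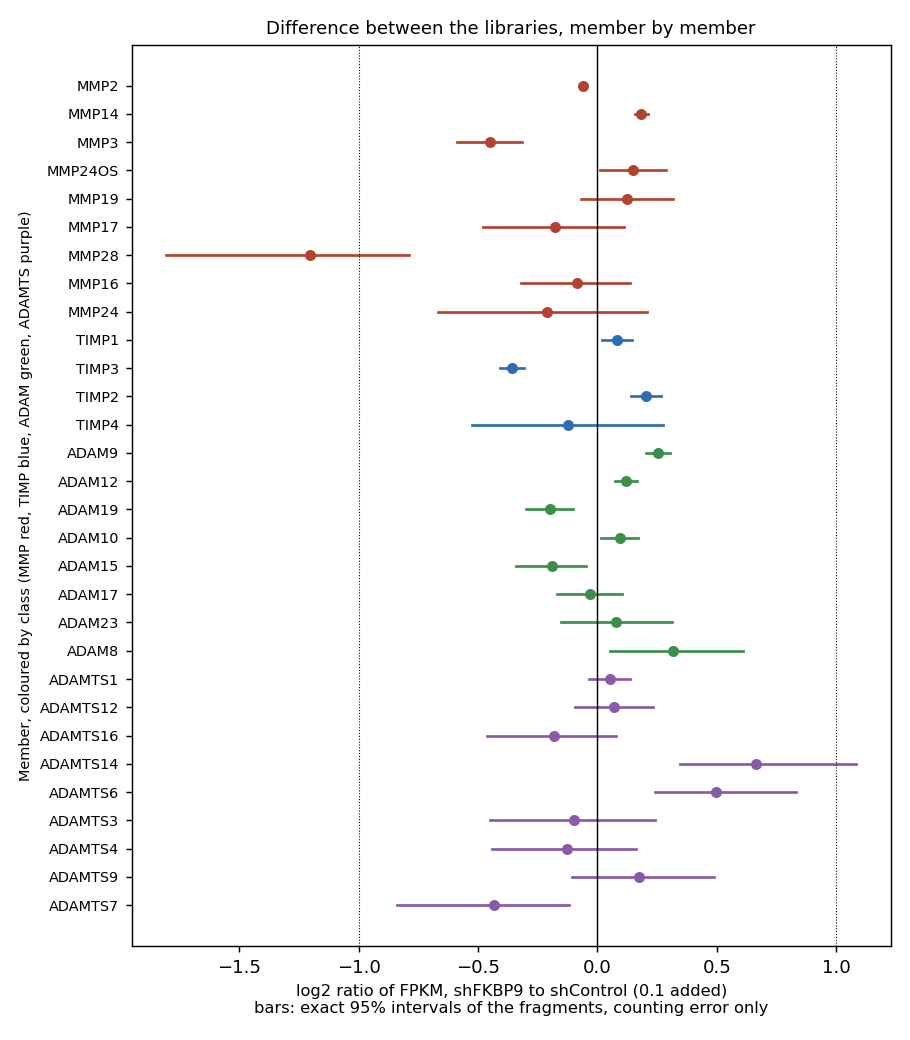
Log2 of the FPKM ratio, shFKBP9 over shControl, for the 30 members, with exact 95% intervals of the fragments that cover counting error only and dotted lines at 2-fold. MMP28 lies to the left of the left line with its point at -1.21, and the intervals of MMP2 and MMP14 are the narrowest.

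Sequences upstream of the start site were given for 40 of the 67 members in the RefSeq promoter windows of GRCh38.p14. Among the members not matched were MMP1, MMP2, MMP3, MMP28, TIMP2 and ADAM9. Those of MMP14, TIMP3 and ADAMTS14 are shown because they precede the membrane-type MMP and the inhibitor with the smallest adjusted p-values and, of the 30 members with at least 1 FPKM, the one with the largest increase. Each is the 250 bases before the RefSeq start on the plus strand, 5′ to 3′, and capitals mark CCAAT on either strand. The windows lie at chr14:22836335-22836584, chr22:32801455-32801704 and chr10:70672256-70672505, and the last ends before the start of ADAMTS14 in the deposited file.
MMP14: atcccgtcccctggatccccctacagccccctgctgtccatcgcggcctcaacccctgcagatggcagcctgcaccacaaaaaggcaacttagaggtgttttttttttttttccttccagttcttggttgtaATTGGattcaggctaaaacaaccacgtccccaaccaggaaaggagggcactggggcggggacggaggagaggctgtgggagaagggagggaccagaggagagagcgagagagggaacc
TIMP3: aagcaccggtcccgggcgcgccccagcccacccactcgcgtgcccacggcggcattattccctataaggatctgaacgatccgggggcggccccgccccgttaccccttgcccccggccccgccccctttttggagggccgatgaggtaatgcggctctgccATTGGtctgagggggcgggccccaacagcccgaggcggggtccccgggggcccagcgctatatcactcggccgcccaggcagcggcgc
ADAMTS14: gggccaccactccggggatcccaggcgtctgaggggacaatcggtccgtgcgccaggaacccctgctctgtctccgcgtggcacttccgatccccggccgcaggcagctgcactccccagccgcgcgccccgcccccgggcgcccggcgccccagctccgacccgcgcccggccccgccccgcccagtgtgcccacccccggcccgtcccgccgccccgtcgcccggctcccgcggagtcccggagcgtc

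MMP14 and TIMP3, which differed in opposite directions, each held 1 CCAAT motif, 118 and 88 bases before the start, and ADAMTS14 held 0. The GC content of these windows was 56.8% for MMP14, 72.4% for TIMP3 and 80.4% for ADAMTS14. Over the full windows of 300 bases CCAAT was found in 18 of the 40 members (45%) and in 34.6% of all 35116 windows. For both motifs a member counted if any of its windows held the motif. The share over all is per window, so these shares are not in like units. The AP-1 motif, TGAGTCA or TGACTCA, was found in 1 of the 40 members, MMP7, and in 4.95% of all windows. MMP1 and MMP3 are not among the 40, so their promoters were not searched. MMP7 had 8 fragments in shControl and 5 in shFKBP9.

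Among the MMPs, the gelatinase MMP2, which cleaves denatured collagen and the type IV collagen of basement membranes, had the highest level. Its FPKM was 658 in shControl and 631 in shFKBP9, rank 38 and rank 40 of all genes of the file. MMP2 (ENSG00000087245) spans bases 55389700 to 55506691 of chromosome 16 (hg38), and its 58799 and 53455 fragments gave a log2 ratio of -0.06 (95% interval -0.08 to -0.04). MMP2 was thus called lower in shFKBP9 at 95.9% of its shControl level. The other gelatinase, MMP9, had 17 fragments in shControl and 14 in shFKBP9.

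MMP14, also called MT1-MMP, is anchored in the membrane, cleaves fibrillar collagen at the cell surface and, with TIMP2 as a bridge, activates proMMP2. Its FPKM was 260 in shControl and 295 in shFKBP9, a log2 ratio of 0.18 (95% interval 0.16 to 0.21; exact binomial test, adjusted p = 6.44e-38). MMP14 (chromosome 14, 22836557 to 22849027) was thus higher where MMP2 was lower, and the ratio of MMP2 to MMP14 FPKM was 2.53 in shControl and 2.14 in shFKBP9. The other membrane-type members with at least 1 FPKM were MMP17, MMP16 and MMP24, all under 3 FPKM, with log2 ratios of -0.18, -0.09 and -0.21 and intervals that included 0. MMP15 had 21 and 10 fragments and was not called (95% interval of the log2 ratio -2.24 to 0.16), and MMP25, with 6 and 2, was below the minimum for the test.

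MMP24OS stood at 8.45 FPKM in shControl and at 9.37 FPKM in shFKBP9. In the deposited file its span covers MMP24 on the opposite strand. In GENCODE release 44 it shares 806 exon bases with MMP24, 18.4% of those of MMP24. Whether strand was used in the counting is not given in the sources used here, so the fragments of MMP24, 100 and 81, cannot be told apart from those of MMP24OS in this stretch. Exon bases were shared with another gene by 24 members in all, among them MMP19 (17.6% of its exon bases, with TMEM198B), ADAM17 (10.3%, with IAH1) and TIMP4 (14.2%, with SYN2), and their values carry the same limit.

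The stromelysin MMP3, which cleaves fibronectin, laminin and proteoglycans and activates other proMMPs, was the third protease of the MMP class by level. It stood at 29.3 FPKM (1085 fragments) in shControl and at 21.4 FPKM (753 fragments) in shFKBP9, so that 73.2% of the level was left. The log2 ratio of MMP3 was -0.45 (95% interval -0.59 to -0.31; exact binomial test, adjusted p = 1.24e-09). The other stromelysins MMP10 and MMP11 were low, with 0 and 2 and with 19 and 27 fragments.

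MMP28, known as epilysin, is a secreted protease of epithelia and other tissues that carries a cleavage site for furin. It had 121 fragments in shControl (2.34 FPKM) and 47 in shFKBP9 (0.958 FPKM), so that 41.0% of the level was left. The log2 ratio was -1.21 (95% interval -1.81 to -0.79; exact binomial test, adjusted p = 1.34e-06), and it was -0.77 with 1 added to FPKM. MMP28 (ENSG00000271447) lies on chromosome 17 from 35756249 to 35795707, within the span of TAF15 on the opposite strand, with which it shares 0 exon bases. TAF15 had 5189 fragments in shControl and 4757 in shFKBP9. MMP19, another secreted member of the class, stood at 5.18 and 5.65 FPKM, and its interval included 0.

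The collagenases MMP1, MMP8 and MMP13, which cut the triple helix of fibrillar collagen, had 18 fragments together in shControl and 34 in shFKBP9, and 0 of the 3 reached 1 FPKM. MMP1 had 8 and 17 fragments (95% interval of the log2 ratio -0.13 to 2.59) and MMP8 5 and 13 (-0.12 to 3.30). MMP13 had 5 and 4 fragments (-2.58 to 1.97), fewer in shFKBP9. All 3 single-gene intervals included 0. The summed fragments of the 3 collagenases had a log2 ratio of 0.99 with an exact 95% interval of 0.13 to 1.91, which covers counting error only and rests on few fragments. It was 1 of 14 groups of members whose fragments were summed, and the intervals of 5 groups lay above 0 and those of 3 below. MMP24OS, which is not a protease, and ADAMTS13 each formed a group alone. The group of MMP24OS was among those above 0. Among the MMPs the sum of the membrane-type members was at 0.17 (0.15 to 0.20), that of the gelatinases at -0.06 (-0.08 to -0.04) and that of the stromelysins at -0.42 (-0.55 to -0.29). Each of these sums was nearly that of a single gene. In shControl MMP14 had 21001 of 21678 fragments, MMP2 58799 of 58816 and MMP3 1085 of 1104. MMP15, MMP16, MMP17, MMP24 and MMP25 were lower in shFKBP9, unlike MMP14. MMP10 and MMP11 were higher, unlike MMP3, and MMP9 was lower, as MMP2 was.

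MMP3 stood apart from its neighbours. It is 1 of 9 MMP genes that lie in a row on the minus strand of chromosome 11, from 102520508 to 102955734 of hg38, a span of 435 kilobases with 0 other protein-coding genes inside it. In order along the chromosome they are MMP7, MMP20, MMP27, MMP8, MMP10, MMP1, MMP3, MMP12 and MMP13. MMP3 held 97.3% of the fragments of this cluster in shControl and 94.2% in shFKBP9. The other 8 genes had 30 fragments together in shControl and 46 in shFKBP9, a log2 ratio of 0.69 with an interval of -0.00 to 1.41 that just included 0. The collagenases MMP1, MMP8 and MMP13, whose sum is given above, are among these 8 genes, and the other 5 had 12 fragments in shControl and 12 in shFKBP9. MMP7, MMP20 and MMP13 had fewer fragments in shFKBP9, as MMP3 did, and MMP27 had 0 in both libraries. The sum was formed after the values of its genes had been seen.

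All 4 TIMPs reached 1 FPKM, and they did not move together. TIMP1, a secreted inhibitor of most MMPs with growth-promoting effects on some cells, stood at 146 FPKM in shControl and at 154 FPKM in shFKBP9. Its log2 ratio was 0.08 (95% interval 0.02 to 0.14), and it passed the exact binomial test at the edge of the threshold (adjusted p = 0.04995). TIMP1 lies on chromosome X from 47582313 to 47586789, inside SYN1, which had 21 and 16 fragments and shares 0 exon bases with it.

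TIMP3, which binds to the matrix and inhibits ADAM17, ADAM10 and several ADAMTS enzymes besides MMPs, was lower. It stood at 90.3 FPKM (7529 fragments) in shControl and at 70.4 FPKM (5567 fragments) in shFKBP9, so that 78.0% of the level was left. The log2 ratio was -0.36 (95% interval -0.41 to -0.31; exact binomial test, adjusted p = 4.69e-43). TIMP2, which inhibits MMP2 and also takes part in its activation by MMP14, was higher, at 39.0 FPKM in shControl and 45.0 in shFKBP9. The log2 ratio of TIMP2 was 0.20 (95% interval 0.14 to 0.27; exact binomial test, adjusted p = 2.73e-09). TIMP4 stood at 3.85 and 3.53 FPKM with an interval that included 0.

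The FPKM of all MMP genes summed to 971 in shControl and 971 in shFKBP9, and that of the TIMPs to 279 and 273. The ratio of these sums was 3.48 in shControl (95% counting interval 3.41 to 3.55) and 3.55 in shFKBP9 (3.48 to 3.62), so that the intervals overlapped. Without MMP2 and TIMP1, the highest member of each sum, it was 2.35 in shControl and 2.85 in shFKBP9, and from summed fragments it was 5.29 and 5.59. MMP2 made up 67.8% of the MMP sum in shControl and 65.0% in shFKBP9, and MMP14 26.8% and 30.4%. Within the TIMPs the share of TIMP3 was 32.4% and 25.8%, that of TIMP1 52.3% and 56.5% and that of TIMP2 14.0% and 16.5%. These are levels of RNA, and neither secreted protein nor activity was measured in these files.

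Of the 20 ADAM genes 8 reached 1 FPKM, and ADAM9 and ADAM12 together made up most of the summed FPKM of the class. ADAM9, a sheddase expressed in many tumours, stood at 49.7 FPKM in shControl and at 59.3 FPKM in shFKBP9, from 6226 and 7041 fragments. Its log2 ratio was 0.25 (95% interval 0.20 to 0.30; exact binomial test, adjusted p = 3.70e-22). ADAM12, which cleaves the precursor of heparin-binding EGF and insulin-like growth factor binding proteins, was at 42.2 and 45.9 FPKM. It was called higher with a log2 ratio of 0.12 (95% interval 0.08 to 0.17).

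ADAM19, which sheds neuregulin, and ADAM15, which has an RGD motif that binds integrins, were called lower. ADAM19 stood at 13.2 FPKM in shControl and at 11.5 FPKM in shFKBP9, a log2 ratio of -0.20 (95% interval -0.30 to -0.10). ADAM15 had 7.05 and 6.17, a log2 ratio of -0.19 (-0.34 to -0.05), and it lost its call with libraries scaled by the median ratio of expressed genes, under which ADAM10 gained one. The main sheddases ADAM10, which cleaves Notch and N-cadherin, and ADAM17, which releases TNF and ligands of the EGF receptor, differed little. ADAM10 was at 9.20 and 9.82 FPKM with a log2 ratio of 0.09 (95% interval 0.02 to 0.17; exact binomial test, adjusted p = 0.0699), and ADAM17 at 4.80 and 4.70 with -0.03 (-0.17 to 0.10; adjusted p = 0.821).

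ADAM8, a protease of leukocytes and of invasive tumours, had 198 fragments in shControl and 236 in shFKBP9, a log2 ratio of 0.32 (95% interval 0.05 to 0.61) that did not pass the exact binomial test after adjustment (adjusted p = 0.0757). ADAM23, which lacks protease activity and binds integrins, stood at 2.65 and 2.80 FPKM. Of the other 12 ADAM genes, ADAM22 had the most fragments, 173 and 183. ADAM2, ADAM18, ADAM30 and ADAM33 had 0 fragments in both libraries, the first pair being genes of the testis.

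The ADAMTS class was lower than the others in level and held the largest increase among the 30 members. ADAMTS1, which cleaves the proteoglycans versican and aggrecan, made up 56.3% of the summed FPKM of the class in shControl and 56.2% in shFKBP9. It stood at 17.9 and 18.5 FPKM with a log2 ratio of 0.05 (95% interval -0.03 to 0.14). Of the 7 proteoglycan-cleaving members 4 were tested, and 0 of these were called in either direction, where 9.93% of all genes tested were called higher and 11.8% lower. ADAMTS8, ADAMTS15 and ADAMTS20 had 0 fragments.

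ADAMTS14, which removes the amino-terminal propeptide of procollagen, stood at 1.08 FPKM in shControl and at 1.77 FPKM in shFKBP9, from 103 and 160 fragments. Its log2 ratio was 0.66 (95% interval 0.35 to 1.08; exact binomial test, adjusted p = 0.000921). ADAMTS14 (ENSG00000138316) lies on chromosome 10 from 70672803 to 70762441. Of the other procollagen N-proteinases, ADAMTS3 had 152 and 134 fragments and was not called, and ADAMTS2, with 0 and 2, was below the minimum for the test. The difference between ADAMTS14 and ADAMTS3 was not tested.

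ADAMTS6, an enzyme of connective tissue, had 166 fragments in shControl and 228 in shFKBP9, a log2 ratio of 0.50 (95% interval 0.24 to 0.83; exact binomial test, adjusted p = 0.00232). ADAMTS7, which with ADAMTS12 binds the cartilage protein COMP, had 163 and 111 fragments and a log2 ratio of -0.43 (95% interval -0.84 to -0.12; exact binomial test, adjusted p = 0.0379). ADAMTS12 had 627 and 624 fragments and an interval that included 0, and the difference between ADAMTS7 and ADAMTS12 was not tested. ADAMTS7 has pseudogene copies whose reads can be mistaken for its own, and with the 3 copies of the file added the sums were 169 and 118. ADAMTS16, ADAMTS4 and ADAMTS9 lay between 0.941 and 2.39 FPKM and were not called. Of the ADAMTS genes below 1 FPKM, ADAMTS5, an aggrecanase, had the most fragments, 109 and 89.

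Members without a detectable transcript were found in every class but the TIMPs. With 0 fragments in both libraries were 3 MMP, 4 ADAM and 5 ADAMTS genes, among them MMP21, MMP26, ADAMTS8, ADAMTS10, ADAMTS15, ADAMTS19 and ADAMTS20. A count of 0 allows up to 3 fragments, which corresponds to at most 0.134 FPKM for the shortest of them. Of the 25 members that were detected below 1 FPKM, 14 had at least 10 fragments together and were tested, and 0 of these were called by the exact binomial test. Of all genes below 1 FPKM that were tested, 1.91% were called higher and 1.79% lower, and of the protein-coding ones 2.71% and 2.26%. The VWF-cleaving protease ADAMTS13 was among the 14 members tested at this level and not called, with 71 and 67 fragments.

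**Figure D3:**
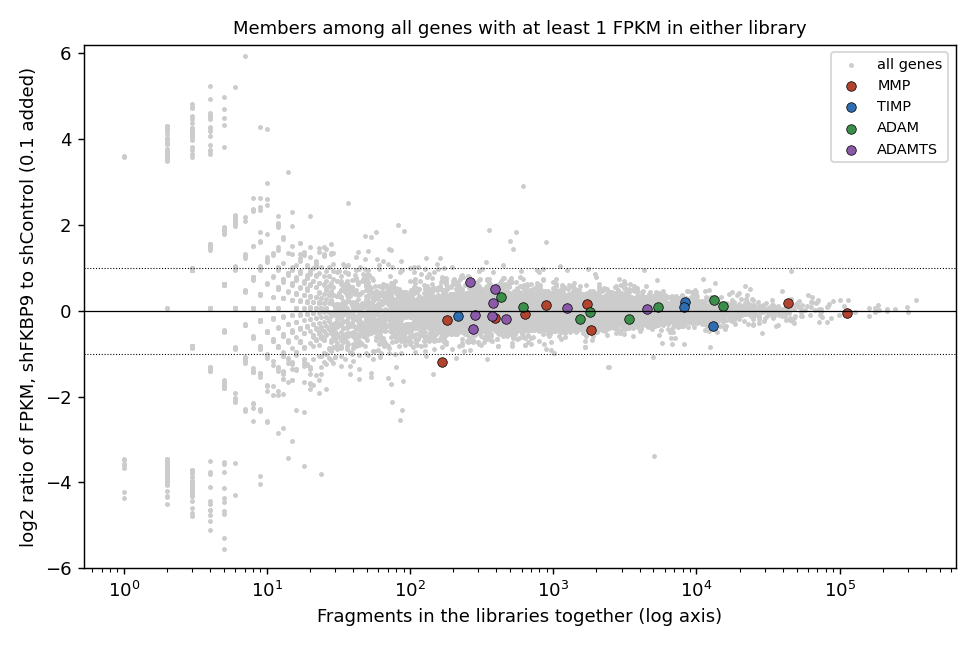
Log2 of the FPKM ratio, shFKBP9 over shControl, against the fragments in the libraries together (log axis), with the 12741 genes of the file at 1 FPKM or more in grey and the 30 members coloured by class, with dotted lines at 2-fold. All members but MMP28, at 168 fragments, lie between the dotted lines, and MMP28 lies below the lower line.

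Genes that act with the members were described from 7 lists. In the plasminogen system, urokinase (PLAU) and tissue-type activator (PLAT) turn plasminogen into plasmin, a protease that also activates proMMPs. Of the 6 genes described here 5 were tested, 4 were called higher in shFKBP9 and 0 lower by the exact binomial test, and 2 of them were past 1.5-fold. Of all genes 9.93% were called higher and 4.25% were past 1.5-fold higher, and of protein-coding genes 12.2% and 1.13%. PLG, plasminogen itself, had 0 fragments. The median log2 ratio of the 5 genes with at least 1 FPKM was 0.47, beside -0.02 over all genes at that level.

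PLAT had 108 and 211 fragments (log2 ratio 0.97, 95% interval 0.70 to 1.39), and PLAU, at 47.4 and 65.5 FPKM, had a log2 ratio of 0.47 (0.39 to 0.54). The protease inhibitor SERPINB2 was at 0.59 (0.32 to 0.89) and the urokinase receptor PLAUR at 0.20 (0.14 to 0.27), while SERPINE2 was not called. Calls were thus made for both activators, the receptor and an inhibitor, all in 1 direction. With the assumed dispersion of 0.04, the negative binomial exact test called 0 genes of this list and 0 of the other lists after adjustment, and PLAT alone had an unadjusted p under 0.05.

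**Figure D4:**
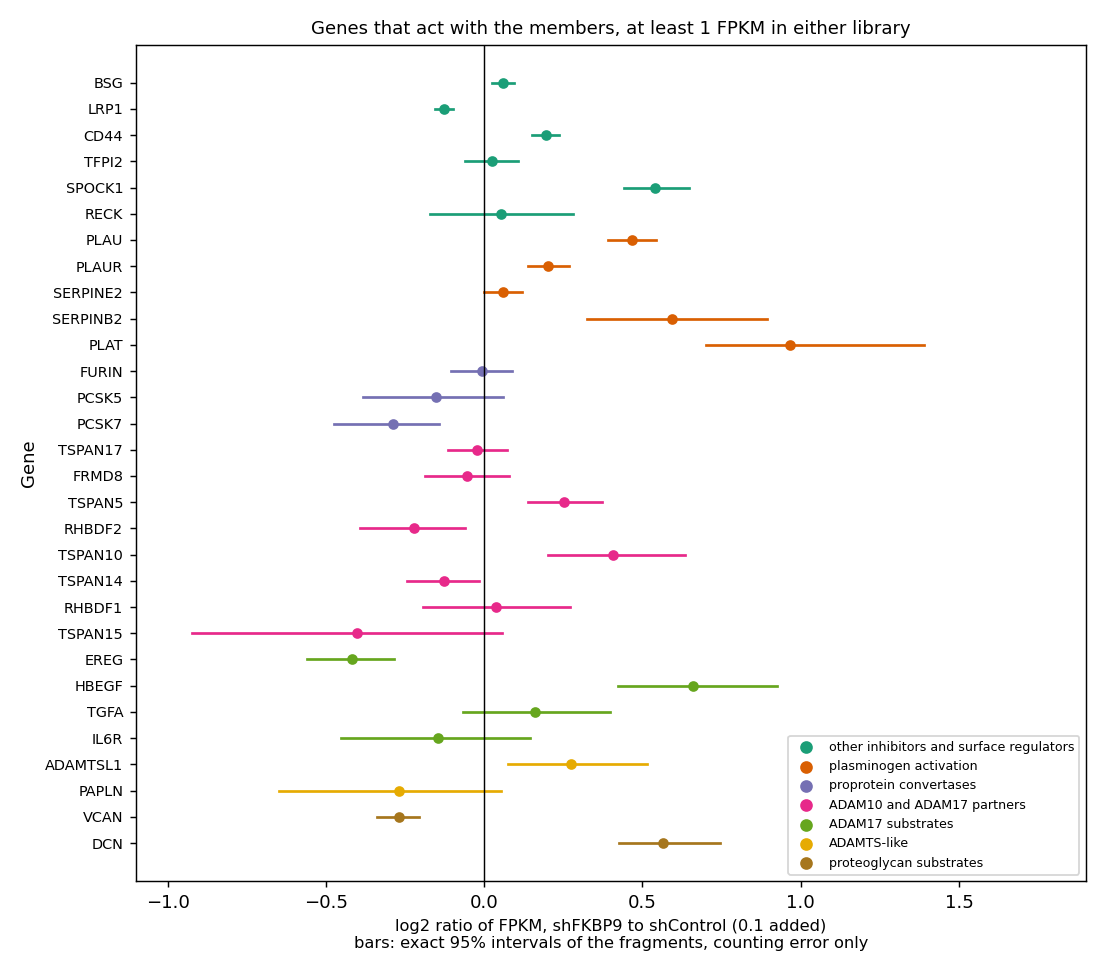
Log2 of the FPKM ratio, shFKBP9 over shControl, for those genes of the 7 lists that reached 1 FPKM, coloured by list, with exact 95% intervals of the fragments that cover counting error only. The 5 genes of plasminogen activation all lie above 0, with PLAT farthest to the right.

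Among other inhibitors and surface regulators, 3 of 6 genes tested were called higher and 1 lower, where 9.93% of all genes tested were called higher and 11.8% lower, and 12.2% and 14.7% of the protein-coding ones. The same shares stand behind the counts of the lists that follow. SPOCK1, a proteoglycan of the testican family, stood at 11.6 FPKM in shControl and at 17.0 FPKM in shFKBP9 (log2 ratio 0.54, 95% interval 0.44 to 0.65). CD44, a hyaluronan receptor that is cleaved by MMP14 and ADAM10, was at 0.19 (0.15 to 0.24), and BSG, the inducer of MMPs known as EMMPRIN, at 0.06 (0.02 to 0.09). LRP1, the receptor through which MMPs and TIMPs are taken up, was lower at -0.13 (-0.16 to -0.10). RECK, a membrane-anchored inhibitor of MMP14, had 331 and 326 fragments and was not called.

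The proprotein convertases cut the propeptide from membrane-type MMPs, MMP28 and most ADAMs and ADAMTS enzymes. FURIN stood at 20.9 and 20.8 FPKM with a log2 ratio of -0.01 (95% interval -0.10 to 0.09), and of 4 genes tested 1, PCSK7, was called lower at -0.29 (-0.47 to -0.14). Of the 9 partners of ADAM10 and ADAM17, 2 were called higher, TSPAN5 at 0.25 (0.14 to 0.37) and TSPAN10 at 0.41 (0.20 to 0.63), and 1 lower, RHBDF2, an iRhom that carries ADAM17 to the surface, at -0.22 (-0.39 to -0.06).

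Substrates differed in both directions. Of 5 tested substrates of ADAM17, HBEGF was called higher, at 4.01 FPKM in shControl and at 6.39 FPKM in shFKBP9 (log2 ratio 0.66, 95% interval 0.42 to 0.93), and EREG lower, with 10.2 and 7.59 (-0.42, -0.56 to -0.28). Of 4 tested proteoglycans, VCAN, the versican that ADAMTS enzymes cleave, was called lower at 15.2 and 12.6 FPKM (-0.27, -0.34 to -0.20), and DCN, decorin, higher at 2.34 and 3.51 (0.57, 0.43 to 0.75). Among 3 tested ADAMTS-like genes, which resemble ADAMTS enzymes but lack the protease domain, ADAMTSL1 was called higher at 0.28 (0.08 to 0.52).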

How the data were processed

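Sequencing gave 1 library from control-vector cells and 1 from FKBP9 shRNA cells of the SF-539 line. The authors removed low quality reads, aligned paired-end reads to hg38 with HISAT2 2.0.5, counted them with featureCounts 1.5.0-p3 and deposited FPKM per gene. The annotation and strand setting are not given in the sources used here. The length in the file scales each FPKM, so levels between genes depend on it.

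Each FPKM times the gene length was a whole multiple (within 0.01) of the smallest step in its library for 100% of values above 0, which gave fragments per gene. Ratios were log2 of FPKM with 0.1 added. Intervals are exact Clopper-Pearson intervals at 95% without that addition, for the ratio of sums a normal approximation of the counting error, and cover counting error only. The exact binomial test was adjusted over all genes with at least 10 fragments, with calls at an adjusted p of 0.05. Levels were read at a minimum of 1 FPKM in either library.

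By rule the text names members with at least 1 FPKM or called by the test, the deepest of the others in each class and genes of the lists. Other low members were named after their values were seen. A further 1 gene was left out of the lists and their counts and is not reported here. The members and lists were chosen with earlier results of these data known. Shared exon bases used GENCODE release 44 on hg38, in which all 67 members were found by ID. Of these, 19 had the same start and end there as in the deposited file. The shared exon bases and their percentages are those of the release 44 genes, which can differ from the genes as counted. The test and intervals were tested on simulated data. Alternatives were other additions, minimums and scalings, a negative binomial test and other sums. The tools were scipy 1.17.1, numpy 2.4.6, pandas 2.3.3 and, for plots, matplotlib 3.10.9 under Python 3.11.15.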

Additional observations from a re-analysis of the deposited data

How the results depend on the processing

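Of 120 log2 ratios of single members recomputed with 1 or 0.01 added to FPKM, with median-ratio scaling or as TPM, 118 lay within the counting interval of the reported value, 0 changed sign among called members, and the exceptions were MMP28 with 1 added (-0.77) and MMP2 as TPM (-0.08). Scaling moved the median of all genes by 0.02 on the log2 scale. With 1 added to FPKM, 0 members were past 2-fold lower and 0 past 1.5-fold higher. With at least 1 FPKM required in both libraries, which leaves out MMP28, 0 were past 2-fold lower and 0 past 1.5-fold lower. Without a minimum, 5 of the 55 detected members were past 1.5-fold higher and 5 lower (9.09% each), where 13.0% and 13.2% of all detected genes and 3.31% and 3.70% of the protein-coding ones were. The negative binomial test at a dispersion of 0.04 called 0 members higher and 0 lower. The median log2 ratio of the members went from 0.01 to -0.01 as TPM, -0.05 over members with at least 10 fragments and -0.03 without MMP24OS. Over members with at least 10 fragments, the medians of the ADAM and ADAMTS classes went from 0.09 and 0.05 to -0.00 and -0.01. A minimum of 50 fragments kept the same 14 calls, and median-ratio scaling shared 13 of 14. Over all genes tested, that scaling called 1917 higher and 1765 lower, in place of 1699 and 2023, so the balance of the background turned. The ratio of summed MMP to TIMP values was 5.29 in shControl and 5.59 in shFKBP9 from fragments, in which longer transcripts weigh more, and 2.35 and 2.85 without MMP2 and TIMP1. Leaving out MMP24OS, an alternative chosen after seeing the data, changed 0 of the fold counts. With 1 library per condition no paired fit or leave-one-out value could be had, and variation between cultures is not measured.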

Other observations

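Besides the 67 members, 20 rows of the file carry a symbol of these families without being protein-coding, and 8 of them had fragments, 92 in shControl and 91 in shFKBP9 together. None reached 1 FPKM. The pseudogene ADAM20P1 had 1 fragment in shControl and 13 in shFKBP9, while ADAM21, which lies across it on the opposite strand, had 13 and 4. ADAM20, ADAM21, ADAM20P1 and ADAM21P1 are related in sequence, and together they had 21 fragments in each library. Whether reads were divided differently among these copies was not tested. MMP23B and its copy MMP23A had 7 fragments together in shControl and 0 in shFKBP9. The antisense genes MMP25-AS1 and ADAMTS9-AS2 were also detected, the former at 39 and 23 fragments and the latter at 36 and 46.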
